A study of Mus musculus with 2 samples.

Results

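The Hox cluster genes were examined in cranial suture tissue of newborn mice, which lies mostly in front of the part of the body where Hox genes are used. The members are all rows of the expression table whose gene symbol is Hoxa, Hoxb, Hoxc or Hoxd followed by a number. This gave 31 genes of 23930 amplicon targets, with 8 Hoxa, 9 Hoxb, 8 Hoxc and 6 Hoxd genes. They are described by cluster and by paralogue number, the number shared by corresponding genes of the 4 clusters. A further 8 of the 39 annotated mouse Hox genes (Hoxa2, Hoxa5, Hoxa11, Hoxb5, Hoxc10, Hoxd3, Hoxd10 and Hoxd11) were not analysed here.

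There was 1 group, wildtype pups at postnatal day 3, with total RNA from the coronal, sagittal and lambdoid sutures, the fibrous joints between the skull bones. It comprised 2 libraries of the same batch number, called library 1 and library 2. The labels name suture stem cells as the cell type, but the protocol describes whole tissue and no sort, and nothing says whether the libraries came from separate pups, so their spread may be partly technical. The libraries held 5663344 and 15802610 reads, so a single read was worth 0.177 CPM (counts per 1000000 reads of the library) in library 1, and 0.0633 CPM in the deeper library 2. Markers of suture and bone were present, and 10 of 10 such genes reached 1 CPM in both libraries, from Msx2 at 9.36 and 10.8 CPM up to Alpl, Ibsp and, at 119187 and 132878 CPM, Col1a1. Their levels differed between the libraries. The exact binomial test described below called 8 of the 10 higher in library 2 and 1 in library 1, against 20.0% and 17.1% of all targets.

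Hox genes code for homeodomain transcription factors that give cells their position along the head to tail axis. They lie in clusters, and the order of the genes along the chromosome matches the order of their front limits in the embryo. Low paralogue numbers reach furthest forward, into the hindbrain, and high numbers are kept to the lower trunk, limbs and tail. The neural crest and head mesoderm that form the frontal and parietal bones are known to lack Hox expression, whereas the bones at the back of the skull receive cells from the occipital somites, near the front limits of the lower-numbered genes. The lambdoid suture lies at that border.

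Hox reads were scarce but not absent. Of the 31 genes, 3 (9.68%) reached 1 CPM in both libraries, namely Hoxd8, Hoxb2 and Hoxd4, against 55.0% of all targets. Of the 31, 0 reached 10 CPM in both. No read was found in either library for 18 genes (58.1%), against 16.4% of all targets. A count of 0 allows up to 0.530 CPM in library 1, and up to 0.190 CPM in the deeper library 2 (3 reads, counting error only). These limits hold only where the amplicon of the gene works, which could not be checked. In bulk tissue, fewer cells of a type and less RNA per cell cannot be told apart. Reads were present in both libraries for 8 Hox genes, against 71.6% of all targets, and in library 2 alone for 5, against 9.08%. The number of Hox genes with reads in library 1 alone was 0. The median level over the 31 genes was 0 CPM in both libraries, beside 2.65 and 3.35 CPM over all targets. All Hox genes together gave 57 reads in library 1, a summed level of 10.1 CPM with an exact 95% Poisson interval from 7.62 to 13.04. They gave 266 reads in library 2, a sum of 16.8 CPM with an interval from 14.9 to 19.0. The mean of the 2 sums was 13.4 CPM ± 4.79 (SD, n = 2).

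**Figure D1:**
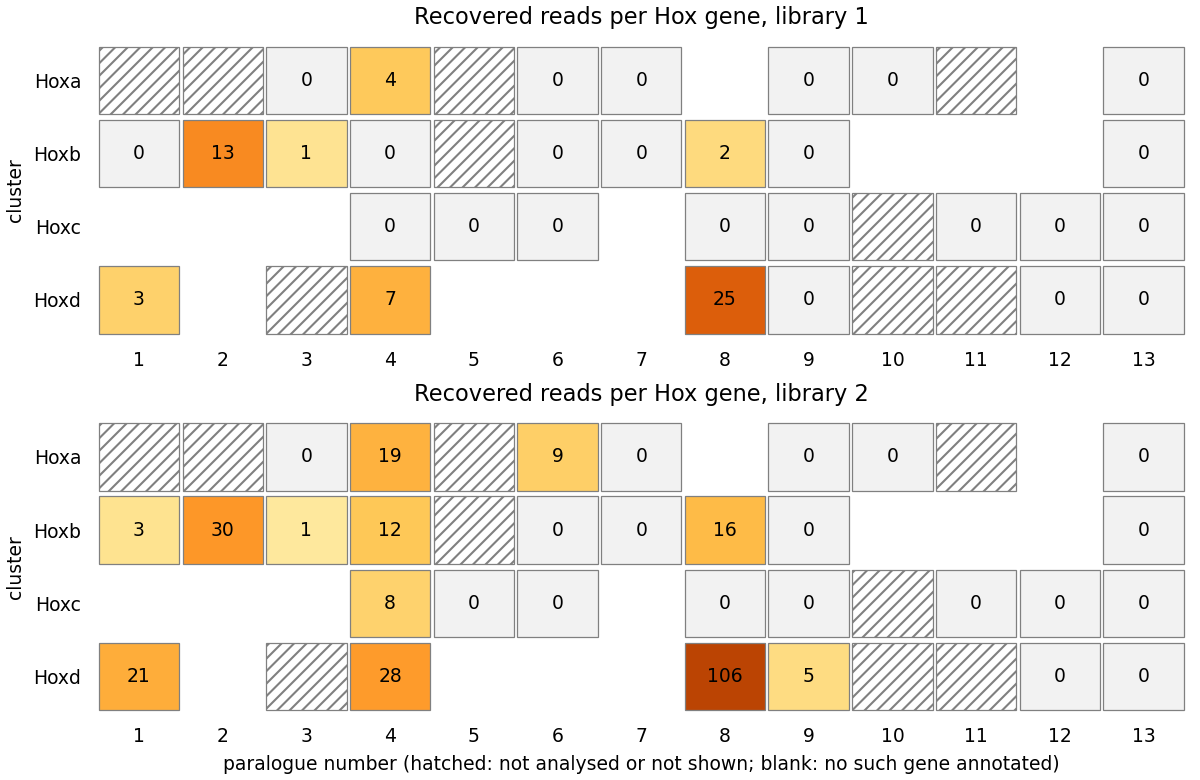
Number of recovered reads of each Hox gene in library 1 (top) and library 2 (bottom), with the clusters in rows and paralogue numbers 1 to 13 in columns. Darker cells have a higher CPM on a log scale, pale grey cells hold 0 reads, hatched cells were not analysed or are not shown and blank places have no annotated gene. Reads reach paralogue number 8 in library 1 and 9 in library 2, and the Hoxc row holds 8 reads in all.

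Reads were found mainly at low and middle paralogue numbers. In the anterior class (numbers 1 to 3) reads were found in either library for 5 of 6 genes, in the central class (4 to 8) for 7 of 13, and in the posterior class (9 to 13) for 1 of 12. The anterior genes summed to 3.35 CPM in library 1 and, in library 2, 3.99 CPM. The central genes summed to 6.71 and 12.5 CPM, and the posterior genes to 0 and 0.316 CPM. All 5 posterior reads were of Hoxd9 in library 2. The 8 measured genes with numbers 10 to 13 gave 0 reads in both libraries. Within the central class the reads were uneven. Number 4 had reads for 4 of 4 genes and 78 reads over both libraries, and number 8 had reads for 2 of 3 genes and 149 reads, of which Hoxd8 gave 131 and Hoxb8 the other 18. Without Hoxd8 the central class held 13 reads in library 1, fewer than the 19 of the anterior class, and 92 in library 2, against 63. Between numbers 4 and 8, number 6 had reads for 1 of 3 genes, and numbers 5 and 7 had 0 reads for their 1 and 2 measured genes.

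The clusters contributed unequally. Hoxd, with 6 measured genes, gave 61.4% of the Hox reads of library 1 (exact Clopper-Pearson 95% interval 47.6 to 74.0) and 60.2% of library 2 (54.0 to 66.1). Hoxb gave 28.1% (17.0 to 41.5) and 23.3% (18.4 to 28.9), and Hoxa gave 10.5% (3.96 to 21.5) and 13.5% (9.66 to 18.2). Hoxc gave 0 of 57 reads in library 1 and 3.01% (1.31 to 5.84) in library 2. The intervals of the same cluster overlapped between the libraries for all 4 clusters, and Hoxd lay above the other clusters in both. That lead in summed reads rested on Hoxd8. Without it, a setting chosen after seeing the data, Hoxd held 10 reads in library 1 and 54 in library 2. All 9 Hoxb genes, with none left out, held more, at 16 and 62. Per gene, the mean of the 5 remaining Hoxd genes was still the higher. It was 0.353 and 0.683 CPM, against 0.314 and 0.436 CPM for Hoxb. In CPM, the sums in library 1 and library 2 were 6.18 and 10.1 for Hoxd, 2.83 and 3.92 for Hoxb, 1.06 and 2.28 for Hoxa, and 0 and 0.506 for Hoxc. Each amplicon has its own efficiency, so sums and the order of different genes weigh amplicons unequally.

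Hoxd8, a central gene that takes part with its neighbours in patterning the trunk, was the highest Hox gene. It stood at 4.41 CPM in library 1 (25 reads, exact 95% Poisson interval 2.86 to 6.52) and 6.71 CPM in library 2 (106 reads, 5.49 to 8.11), with a mean of 5.56 CPM ± 1.62 (SD, n = 2). It alone supplied 43.9% of the Hox reads of library 1 (30.7 to 57.6) and 39.8% of library 2 (33.9 to 46.01). Of all targets, 45.1% had a higher mean. By the GENCODE M21 annotation (build mm10, also called GRCm38), the gene lies on chromosome 2 from 74704615 to 74707933 on the forward strand, and its exons overlap no other annotated exon.

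Hoxb2, a hindbrain gene of the anterior class, was at 2.30 CPM in library 1 (13 reads, 1.22 to 3.93) and 1.90 CPM in library 2 (30 reads, 1.28 to 2.71), a mean of 2.10 CPM ± 0.281 (SD, n = 2). With Hoxb3, it was among the 2 genes whose CPM was higher in library 1. Hoxb2 lies on chromosome 11 from 96350525 to 96354012, and an exon of the antisense gene Hoxb3os overlaps it. Hoxd4, a gene of the neck region whose forced expression further forward in the mouse is known to turn occipital bones toward vertebrae, was at 1.24 CPM in library 1 (7 reads, 0.497 to 2.55) and 1.77 CPM in library 2 (28 reads, 1.18 to 2.56). It lies on chromosome 2 from 74711929 to 74729160 and shares exon sequence with Hoxd3 on the same strand and with Hoxd3os1 on the other. Neither amplicon positions nor the use of strand in counting could be read from the labels or the file, so its reads may include transcripts of Hoxd3.

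Upstream sequence of 3 Hoxd genes is shown because these genes share a cluster but not a read level, from Hoxd8 with 131 reads over both libraries and Hoxd4 with 35 to Hoxd13 with 0. Each is the 250 bases before the RefSeq transcript start, read 5′ to 3′ on the forward strand of GRCm38.p6, at chr2:74704365-74704614, chr2:74721728-74721977 and chr2:74667975-74668224. Every CG dinucleotide is in capitals.
Hoxd8: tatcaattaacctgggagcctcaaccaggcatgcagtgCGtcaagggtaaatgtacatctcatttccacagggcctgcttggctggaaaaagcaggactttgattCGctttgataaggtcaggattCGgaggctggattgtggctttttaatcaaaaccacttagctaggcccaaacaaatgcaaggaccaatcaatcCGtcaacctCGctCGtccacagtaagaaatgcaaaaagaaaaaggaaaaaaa
Hoxd4: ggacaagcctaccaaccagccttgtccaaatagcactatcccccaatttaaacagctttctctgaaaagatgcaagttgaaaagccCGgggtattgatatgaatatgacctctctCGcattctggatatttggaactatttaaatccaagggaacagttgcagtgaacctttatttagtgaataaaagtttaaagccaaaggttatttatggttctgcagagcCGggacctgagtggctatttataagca
Hoxd13: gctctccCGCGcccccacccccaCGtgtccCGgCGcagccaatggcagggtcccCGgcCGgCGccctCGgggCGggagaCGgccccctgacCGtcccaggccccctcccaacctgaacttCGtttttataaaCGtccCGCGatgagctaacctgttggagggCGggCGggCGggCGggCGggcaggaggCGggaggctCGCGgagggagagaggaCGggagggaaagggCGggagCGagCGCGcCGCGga
The windows held 6, 3 and 31 CG dinucleotides in this order, and 50.4%, 71.0% and 5.19% of 32841 RefSeq promoter windows held as many or more. CG-dense promoters are known as landing places of Polycomb complexes, which keep Hox genes silent. Over all 17 windows found for 16 of the 31 genes, the numbers of CG dinucleotides overlapped between genes with and without reads. They ran from 3 to 24 with a median of 12 in the 9 windows of genes with reads, and from 3 to 35 with a median of 14 in the 8 windows of genes without. The motif TGATNNAT, the form of a joint Hox and Pbx site, was searched on both strands and found in 2 of the 17 windows (Hoxb1 and Hoxb8), against 7.69% of all windows. The motif TATAAA, searched the same way, was in 4 (Hoxa10, Hoxb8, Hoxd4 and Hoxd13), against 12.4%. The 2 motifs overlapped in 0 windows.

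The other 10 genes with reads stayed below 1 CPM in at least 1 library. Of them, 3 passed 1 CPM in library 2 alone. Hoxa4, a gene of the neck region, was at 0.706 CPM (4 reads) in library 1 and 1.20 CPM (19 reads) in library 2. Hoxd1, known from pain-sensing neurons in the mouse, was at 0.530 CPM (3 reads) and 1.33 CPM (21 reads). Hoxb8, known from blood progenitors and microglia, was at 0.353 CPM (2 reads) and 1.01 CPM (16 reads). The remaining 7 were low in both libraries. Among them, Hoxb3 had 1 read in each library. Hoxb4, known for its effect on blood stem cells, had 0 and 12 reads, Hoxa6 had 0 and 9, Hoxc4 had 0 and 8, Hoxd9 had 0 and 5, and Hoxb1, a gene of the hindbrain segment of the facial nerve, had 0 and 3.

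**Figure D2:**
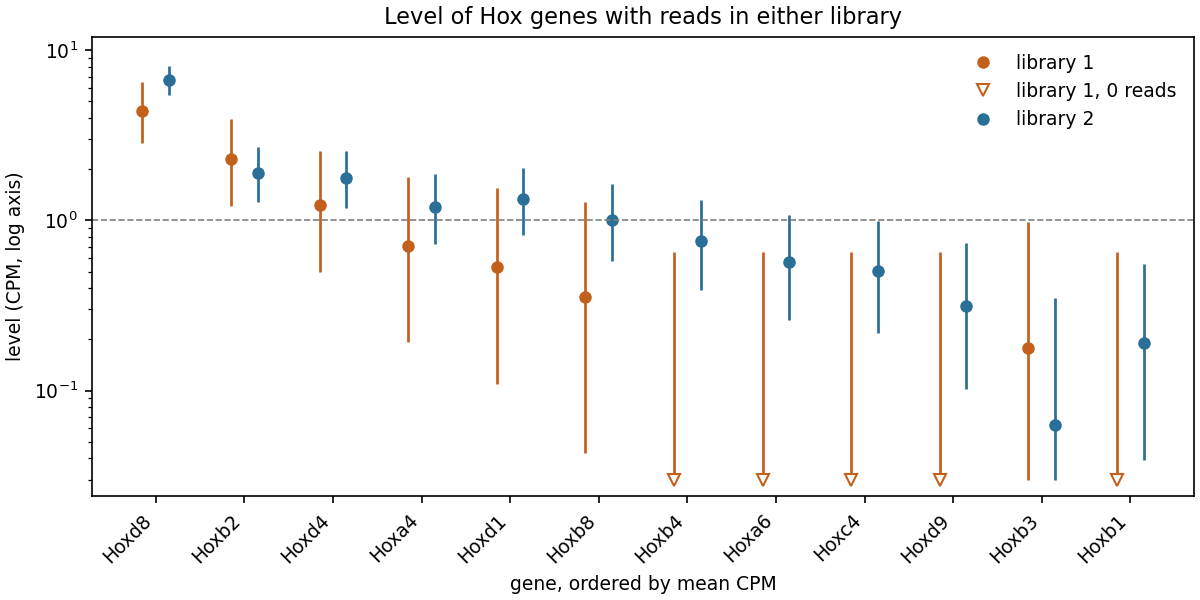
Level of Hox genes with reads, as CPM on a log axis, in library 1 (orange) and library 2 (blue), ordered by mean CPM. Points are the values, lines are exact 95% Poisson intervals clipped at the bottom of the axis, open triangles mark 0 reads in library 1 and the dashed line is 1 CPM. Hoxd8 is the highest in both libraries, at 4.41 and 6.71 CPM, and the intervals of later neighbours overlap.

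By mean CPM the order was Hoxd8, Hoxb2, Hoxd4, Hoxa4, Hoxd1 and Hoxb8, and lower down Hoxb4, Hoxa6, Hoxc4, Hoxd9, Hoxb3 and Hoxb1. Of the neighbouring pairs in the order of all genes with reads, the exact Poisson intervals were apart for 1 pair in library 2, Hoxd8 above Hoxb2, and for 0 pairs in library 1. The order within the other neighbouring pairs was therefore not resolved by the read numbers. Some genes further apart in the order did lie apart. In library 2 the interval of Hoxb2 (1.28 to 2.71 CPM) was above that of Hoxa6 (0.260 to 1.08 CPM). The 18 genes at 0 reads in both libraries were Hoxa3, Hoxa7, Hoxa9, Hoxa10 and Hoxa13, then Hoxb6, Hoxb7, Hoxb9 and Hoxb13, then Hoxc5, Hoxc6, Hoxc8, Hoxc9, Hoxc11, Hoxc12 and Hoxc13, and finally Hoxd12 and Hoxd13. They include Hoxa3, a gene of the pharyngeal arches and thymus, Hoxa9, a gene of blood progenitors, Hoxc13, a gene of hair and nail, and Hoxa13 and Hoxd13, which pattern the digits.

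**Figure D3:**
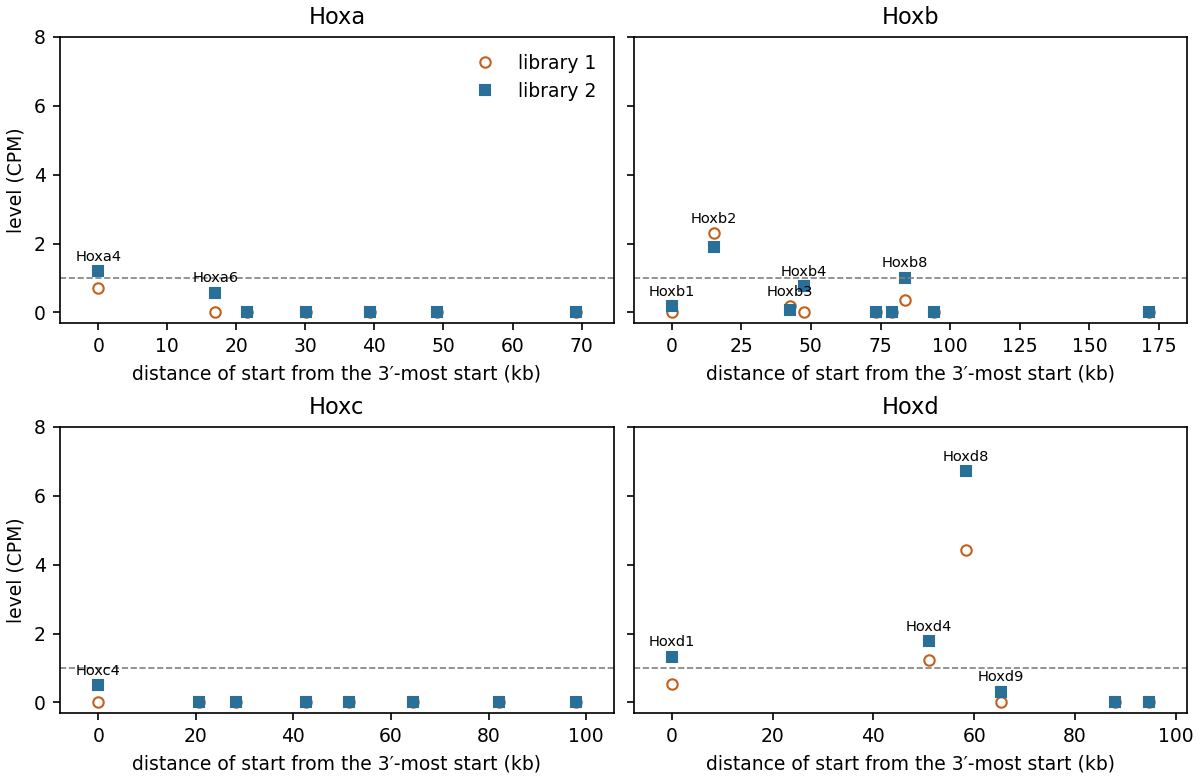
Level (CPM) of Hox genes against the distance of each annotated start from the plotted start nearest the 3′ end of the cluster (kb). Library 1 is shown as open circles, library 2 as filled squares and 1 CPM as the dashed line. Starts are those of the full annotated gene, so Hoxa3 falls beyond Hoxa6, and Hoxc5 beyond Hoxc6, Hoxc8 and Hoxc9. Plotted genes with reads are named. In all 4 clusters the genes furthest from the 3′ end are at 0, and Hoxd8 stands highest, with Hoxd9 next to it at 0 and 0.316 CPM.

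No single Hox gene differed detectably between the libraries. The summed Hox level was higher in library 2, at 16.8 CPM (14.9 to 19.0) against 10.1 CPM (7.62 to 13.04) in library 1. These Poisson intervals, which cover counting error only, lay apart, and the sum was not put to the test below. Reads of each gene were set against the library totals in an exact binomial test (two-sided, with Benjamini-Hochberg adjustment across the 23930 targets). It called 0 of 31 genes, against 37.0% of all targets in either direction. By direction, 0 were higher in library 1, against 17.1%, and 0 in library 2, against 20.0%. At an unadjusted p under 0.05 it gave 1 gene, Hoxb4 (p = 0.0446 and adjusted p = 0.110, exact test). Hoxd8 was 1.52-fold higher in library 2 (95% limits 0.975 and 2.45, exact test with an adjusted p = 0.141). For Hoxd4 the fold was 1.43 (0.612 to 3.89), for Hoxd1 2.51 (0.749 to 13.1), for Hoxa4 1.70 (0.566 to 6.88) and for Hoxb2 0.827 (0.419 to 1.73). Of the 13 genes with reads, 11 had a higher CPM in library 2 and 2 in library 1, beside 11025 and 8986 of all targets. Depth limited this test. A gene read in library 2 alone needed 15 reads to pass, and 6 of the 31 genes had as many over both libraries. A gene read in library 1 alone needed 3. With its total reads placed in the most unequal way, 12 of the 31 genes could have passed. Among the 9415 targets with at least 1 read and no more reads than Hoxd8, the test called 18.5%, against 0 of the 13 Hox genes with reads. The test compares 2 libraries and not conditions.

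Low read numbers were also seen in genes that suture tissue is not known to use. The 3 families below, chosen after their values were seen, give the scale. Of 82 spliced vomeronasal receptors (Vmn2r), 64 had no read, 0 reached 1 CPM in both libraries, and the mean level was 0.0259 and 0.0224 CPM. Their highest values were 1.24 CPM (library 1) and 0.633 CPM (library 2). Of 148 vomeronasal receptors with intronless coding sequence (Vmn1r), 19 (12.8%) had no read, a smaller share than the 58.1% of Hox genes. Of the Vmn1r genes, 0 reached 1 CPM in both libraries. Their mean was 0.292 CPM in library 1, where the Hox mean was 0.325, and 0.212 CPM in library 2, where it was 0.543. Their medians of 0.177 and 0.159 CPM were above the Hox median of 0, and their highest values were 1.77 and 0.823 CPM. Of 12 genes of the reproductive homeobox family Rhox, 8 had no read and the highest values were 0.177 and 0.253 CPM. Hoxd8 and Hoxb2 lay above the highest value of all 3 families in both libraries. Hoxd4 lay above it in library 2 but not in library 1. Hoxa4, Hoxd1 and Hoxb8 also lay above it in library 2 only. The remaining 7 Hox genes with reads lay inside the range of these families in both libraries.

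Other genes in and beside the clusters were described for position. Of 6 non-coding genes of the clusters, 4 had no read (Hoxa11os, Hoxaas3, Hoxd3os1 and Haglr). Hotairm1 had 0 and 5 reads, and Hoxaas2 had 0 and 2. Without knowledge of strand, reads of a gene and its antisense partner cannot be told apart, and 7 of the 31 Hox genes have exons overlapped by a gene on the other strand. The Evx genes, homeobox genes that end the Hoxa and Hoxd clusters, were as low, with Evx1, 52.6 kb beyond Hoxa13, at 1 and 0 reads and Evx2, 8.75 kb beyond Hoxd13, at 0 in both. Of the ParaHox genes, relatives of the Hox clusters, Gsx1 and Pdx1 had 1 read each in library 2 and Gsx2 had none. The nearest analysed protein-coding genes further out were at mixed levels. Mtx2, 60.7 kb from the Hoxd1 end of its cluster, was at 17.8 and 14.2 CPM, whereas Hoxd1 was at 0.530 and 1.33 CPM. Skap2, 143 kb from the 3′ end of Hoxa, was at 32.0 and 13.2 CPM (adjusted p = 2.88e-16 in the exact binomial test). Ttll6, 28.9 kb beyond Hoxb13, was at 1.06 and 9.11 CPM (adjusted p = 5.67e-12 in the same exact test). Calcoco1, 199 kb beyond Hoxc13, was at 69.2 and 132 CPM (adjusted p = 1.09e-34 in the same exact test). Skap1, 96.3 kb from the Hoxb1 end, had 1 read in all and Smug1, 116 kb from the Hoxc4 end, had none.

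The partners of Hox proteins were present where the Hox genes were scarce. TALE homeodomain proteins of the Pbx, Meis and Pknox families bind DNA together with Hox proteins and also work without them. Of 8 measured genes, 7 reached 1 CPM in both libraries. Pbx2 was the highest at 75.8 and 111 CPM, with Meis2 at 57.2 and 50.2 CPM, Pknox1 at 35.3 and 31.6 CPM and Meis3 at 21.2 and 34.7 CPM. Pbx3 was at 18.0 and 15.4 CPM and Pknox2 at 4.06 and 6.58 CPM. Pbx4 was the exception at 0.353 and 0.633 CPM. In the exact binomial test 3 of the 8, Pbx2 and Meis3 among them, had a higher level in library 2, and the test did not call the remaining 5. Of all targets, 20.0% were higher in library 2, and 37.0% were called in either direction.

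The chromatin machinery of Hox control was measured in large part. Polycomb complexes silence Hox genes outside their domain, and trithorax proteins keep them active within it. All 11 measured genes of Polycomb complex PRC2 and all 14 of PRC1 reached 1 CPM in both libraries, against 55.0% of all targets. Cbx2 and Cbx6 of PRC1 were not analysed. The catalytic subunits of PRC2 were at 43.8 and 25.2 CPM (Ezh1) and at 10.4 and 11.5 CPM (Ezh2), with the core subunits Eed at 18.5 and 20.7 CPM and Suz12 at 14.5 and 18.9 CPM. The highest PRC2 member in both libraries was the histone-binding Rbbp4 at 193 and 182 CPM. Its relative Rbbp7 was second in library 1 at 73.8 CPM, but at 16.9 CPM in library 2 it lay below Ezh1, Eed and Suz12. Within PRC1, Pcgf2 was at 72.4 and 166 CPM, Phc2 at 87.4 and 113 CPM, Phc3 at 72.0 and 85.2 CPM and the ubiquitin ligase subunit Rnf2 at 51.7 and 57.3 CPM, while Bmi1 was at 4.94 and 7.15 CPM. By the exact test, library 1 had the higher level for 3 PRC2 genes and 1 PRC1 gene, against 17.1% of all targets. Library 2 had it for 1 PRC2 gene and 6 PRC1 genes, against 20.0%. Of 12 trithorax genes and other activators, 11 reached 1 CPM in both, and the highest by mean were the histone methyltransferase genes Kmt2a (99.4 and 116 CPM) and Kmt2b (64.5 and 115 CPM) and the acetyltransferase gene Kat6a (79.3 and 98.3 CPM). Dpy30, a shared subunit of the methyltransferase complexes, was at 91.6 and 81.3 CPM, second in library 1. Psip1 was the exception at 0.706 and 0.570 CPM. Of these 12, the exact test called 2 toward library 1 and 6 toward library 2, beside 17.1% and 20.0% of all targets.

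Regulators that switch Hox genes on in the embryo were at mixed levels. The Cdx factors, which act in the trunk and tail, were at or near 0, with 0 and 4 reads of Cdx1 and 0 in both libraries for Cdx2 and Cdx4. Egr2, which acts in hindbrain segments, was at 2.83 and 2.22 CPM. The retinoic acid receptor genes, which have many uses outside Hox control, were at 152 and 179 CPM (Rara), 89.7 and 140 CPM (Rarg) and 11.3 and 8.80 CPM (Rarb). Gdf11, a signal that sets posterior Hox limits, was at 16.8 and 31.1 CPM. Of these 10 genes, 6 reached 1 CPM in both libraries. In the exact binomial test 3, Rara, Rarg and Gdf11, were higher in library 2, against 20.0% of all targets.

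**Figure D4:**
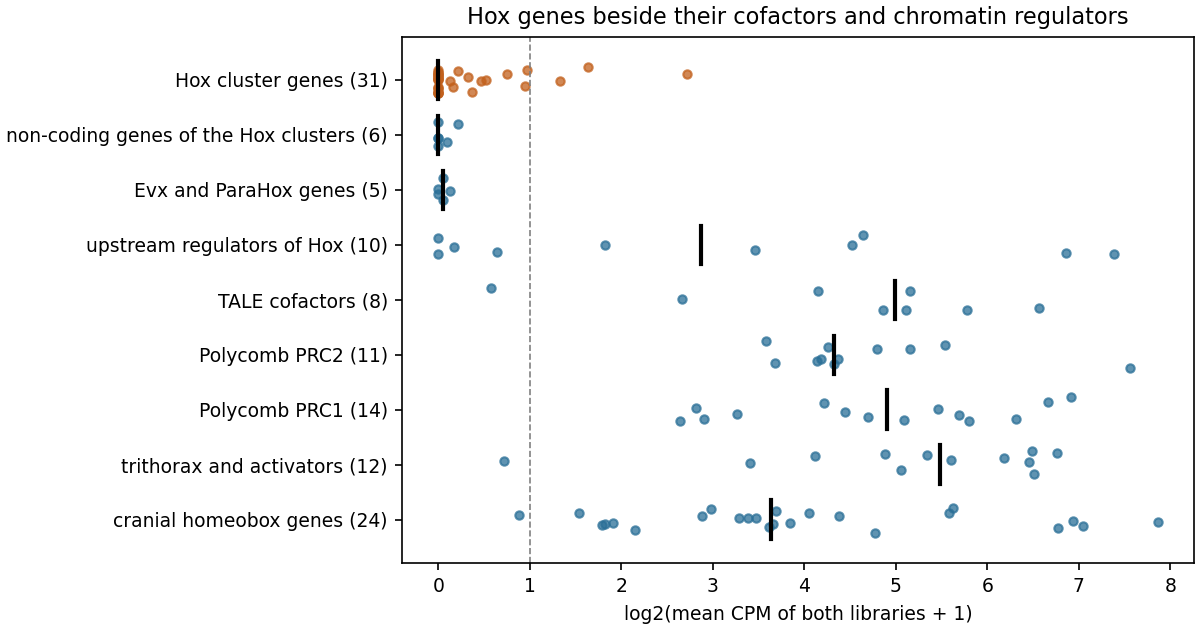
Mean level of both libraries, as log2(CPM + 1), for each gene of the Hox clusters (orange) and of lists of related genes (blue), with the number of genes in brackets. Black bars are medians and the dashed line is 1 CPM, and vertical scatter within a row has no meaning. The Hox median is at 0, whereas the medians of cofactors, Polycomb and trithorax genes lie well above 1 CPM.

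Homeobox genes of the skull outside the Hox clusters were widely expressed. Of 24 measured genes, 20 reached 1 CPM in both libraries, among them Alx4 at 117 and 146 CPM and Dlx5 at 91.8 and 151 CPM, factors of skull and jaw bone. Among the 4 that did not were Gsc at 0.706 and 4.18 CPM, Shox2 at 0.530 and 3.29 CPM and Dlx4 at 0.530 and 1.14 CPM. The median of the 24 was 11.5 CPM, beside 0 CPM for the Hox genes and 3.29 CPM for all targets. The list was drawn up for the head, so its count is no independent evidence. The exact test called 4 of the 24 toward library 1 and 12 toward library 2, beside 17.1% and 20.0% of all targets. The call counts of the Hox genes are not comparable with these, because the Hox genes had few reads.

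Tissues that use Hox genes elsewhere were followed by their markers, and their part in the Hox reads was not tested. Of 8 blood progenitor markers, 6 reached 1 CPM in both libraries, with summed levels of 303 and 127 CPM in libraries 1 and 2. The highest by mean was Cd34 at 188 and 68.9 CPM, so this 1 gene gave most of both sums. Next by mean were Myb at 29.1 and 10.9 CPM and Prtn3 at 29.5 and 9.56 CPM. Kit was not called, at 15.4 and 18.0 CPM, and was second in library 2. By the exact test, 7 of these 8 were higher in library 1 (Cd34, Myb, Prtn3, Elane, Gata2, Mpo and Flt3). The number higher in library 2 was 0. Of all targets, 17.1% were higher in library 1 and 20.0% in library 2. Hoxa9 and Hoxa10, which blood progenitors are known to express, had 0 reads in both libraries. Hoxb8, also known from blood progenitors, had 2 and 16 reads, and Hoxb4, known for its effect on blood stem cells, had 0 and 12. Erythroid markers, 4 of 4 at 1 CPM in both libraries, summed to 1460 and 1247 CPM, with Alas2 and Slc4a1 the highest. Megakaryocyte markers, also 4 of 4, summed to 135 and 74.9 CPM, led by Pf4 at 114 and 51.1 CPM. Of 5 myogenic markers 4 reached 1 CPM in both, with sums of 74.5 and 68.7 CPM. Within that list Pax3, which somites and neural crest share, went from 0.530 to 22.2 CPM (adjusted p = 1.44e-40 in the exact binomial test), while Myod1 was higher in library 1, at 35.3 and 15.2 CPM (adjusted p = 1.22e-16 in the same exact test). Of 7 limb and trunk mesenchyme markers 5 reached 1 CPM in both, with sums of 144 and 118 CPM. The exact test called 2 of the 7 toward each library, against 17.1% and 20.0% of all targets. Tbx15 at 83.3 and 52.5 CPM and Meox1 at 49.3 and 29.6 CPM led the list. Tbx5, a gene of the forelimb, had 0 and 8 reads. Uncx, a somite gene, was at 0.353 and 16.5 CPM (adjusted p = 1.66e-30 in the exact binomial test). Of 8 markers of hindbrain and spinal neurons, 2 reached 1 CPM in both, Isl1 and Lbx1, the second of which is also in the myogenic list. That list summed to 7.42 and 11.5 CPM, and Olig2, Chat and Mnx1 had from 0 to 5 reads in each library. Slc6a5, a transporter gene of glycine neurons, was at 0.353 and 2.03 CPM (adjusted p = 0.0163 in the exact binomial test). Tlx3, a gene of sensory neurons, had 0 reads in library 1 and stood at 3.61 CPM in library 2 (adjusted p = 3.39e-07 in the exact binomial test).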

How the data were processed

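Total RNA of 2 suture samples was made into libraries with the Ion AmpliSeq mouse transcriptome panel, per the labels' protocols. It reads 1 amplicon per target, so levels are not scaled by length and primer efficiency differs between genes. The submitters' processing notes give mm10 as the build. No aligner, counting tool or filter is stated in the labels or the file header. Values for 23930 targets were deposited by the authors as CPM (counts per 1000000 reads of a library).

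Dividing each library's CPM by its smallest step gave whole reads, to within 0.01, for 100% of values. Exact Poisson intervals (95%) and limits of 3 reads for a count of 0 cover counting error only, since the panel reads carry no molecular identifiers. Detection meant at least 1 CPM in each library. Folds on the log scale used log2(CPM + 1), with a pseudocount of 1 CPM that understates the change of low genes. Libraries were compared with an exact two-sided binomial test against the library totals (scipy 1.17.1), adjusted by Benjamini and Hochberg over all targets at 0.05. CPM with 1 library a side leave no residual degrees of freedom, so no model across replicates was fitted. TMM factors came from edgeR 4.0.16. Gene positions came from GENCODE M21 and upstream sequences from RefSeq (GRCm38.p6).

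Members and gene lists were chosen with earlier results of these data known. All 31 Hox genes entered the counts and sums, and results for some Hox and other genes are not reported here. Those detected, those called and at least the 10 highest were to be given with both values, and of other lists the 3 highest members, the exceptions, all TALE cofactors and the nearest analysed protein-coding gene on each side of a cluster. Other genes named (core Polycomb subunits and markers) were chosen after their values were seen.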

Additional observations from a re-analysis of the deposited data

How the results depend on the processing

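The number of Hox genes detected was 3 at 1 CPM in both libraries, 5 at 0.5 CPM (with Hoxa4 and Hoxd1) and 1 at 2 CPM (Hoxd8). A single library gave 3 (library 1) to 6 (library 2) genes at 1 CPM, so library 2 alone added Hoxa4, Hoxd1 and Hoxb8. A minimum of 10 reads in both libraries left 2 genes, Hoxb2 and Hoxd8. Thinning library 2 to the reads of library 1 gave 3 detected genes, and 11 Hox genes then had reads in library 2. The exact binomial test called 0 Hox genes in either direction under all 5 other settings run (totals without the 10 highest targets, TMM totals, the median ratio, targets with 10 or more reads, and thinning), which gave 0 to 2 genes at an unadjusted p under 0.05. The scalings moved all differences by less than 0.1 on the log2 scale. As a fold rule with no test, 3 genes (Hoxa6, Hoxb4 and Hoxc4, all at 0 reads in library 1) passed 2-fold toward library 2 with a pseudocount of 0.5 CPM, and 0 with 1 or 5 CPM. The mean summed Hox level of 13.4 CPM was 7.89 CPM without Hoxd8, a setting chosen after seeing the data, ran from 10.1 to 16.8 CPM with a single library, was 17.9 CPM on totals without the 10 highest targets and 9.16 CPM over the detected members. The median Hox level of 0 CPM was 2.10 CPM over the 3 detected members, a subset picked by level. No paired analysis was possible because the series holds 1 group. Depth limits all statements on genes with 0 reads, and more so in library 1. The unknown efficiency of each amplicon limits them too.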
